A study of Mus musculus with 16 samples.

Results

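The genes of the interleukin-1 (IL-1) family and of the inflammasome were followed in whole-liver RNA of 16 mice. They are 10 of the 25719 genes of the deposited table and were chosen by name. They cover 4 roles, namely the ligands (Il1a, Il1b, Il33, Il18), the receptor antagonist (Il1rn), the receptor chains (Il1r1, Il1rap) and the inflammasome with its effectors (Nlrp3, Casp1, Gsdmd). All 10 names were found on 1 row each, and all 10 passed the minimum mean of 10 normalized counts in every model. The mice were 4 wild-type (WT) and 4 Klrk1-/- mice fed normal chow diet (NCD), and 5 WT and 3 Klrk1-/- mice fed a steatosis-steatohepatitis diet (SSD), which is rich in fat, fructose and cholesterol. The values are read counts per gene divided by 1 factor per mouse, called normalized counts. Livers were taken after 3 weeks of feeding, and 1 library was made per mouse. The WT strain is given as C57BL6J and the Klrk1 KO strain as NKG2D, the activating receptor of lymphocytes that Klrk1 encodes. The methods describe male mice of 8 to 12 weeks, and neither they nor the labels say whether the 2 genotypes were littermates, so genotype cannot be told apart from differences between colonies.

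IL-1 alpha and IL-1 beta bind the receptor chain encoded by Il1r1, which then recruits the accessory chain encoded by Il1rap and signals through MyD88 to NF-kB. IL-1 receptor antagonist, the product of Il1rn, occupies the same receptor without signalling. IL-1 beta and IL-18 are made as inactive precursors that caspase-1 cleaves inside inflammasomes such as the one built by NLRP3, and gasdermin D then forms the membrane pores through which they leave. IL-1 alpha and IL-33 act as alarmins of damaged cells. In liver, Kupffer cells and infiltrating monocytes are the usual sources of IL-1 beta, whereas hepatocytes respond to IL-1 by making acute-phase proteins. RNA levels say nothing of cleavage or release.

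Klrk1 itself was measured first. It reached 20.1 to 28.7 normalized counts in NCD-fed WT mice and 32.9 to 71.1 in SSD-fed WT mice. In Klrk1-/- mice it reached 1.23 to 8.71 on NCD and 0.966 to 4.29 on SSD, below every WT mouse (adjusted p = 0.00165 between genotypes on SSD and 0.00724 on NCD, by limma as for the members). Libraries held 19892025 to 28936707 reads on genes, and the members received between 7 reads (Il1b) and 4720 reads (Il1rap) per mouse. The hepatocyte marker Alb stood at 1066878 to 2068378 normalized counts in the 16 livers, and the neutrophil marker Ly6g was at 0 in all 16 mice. SSD-fed WT mouse 1 stood apart. It had the most reads and the lowest normalized total of all mice, and within its group the highest Il1a, Il1b, Il33, Il1rn, Casp1 and Nlrp3 and the lowest Il1r1, Il1rap and Gsdmd. Some results that rest on it are given with and without it, and others only with it. The mice of each group serve in more than 1 comparison, so the comparisons are not independent of each other.

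Levels of different genes were compared per kb of the gene length deposited with the counts, which is 2828 bases for Il1rap and 850 for Gsdmd. All annotated exons of these genes together (GENCODE M39) cover 15282 and 3003 bases. The orders between genes given here therefore depend on the length used. In NCD-fed WT livers Il1rap was the highest at 1318 ± 69.5 normalized counts per kb (SD, n = 4), followed by Gsdmd at 1061 ± 74.6. Every mouse kept that order. Il18 (377 ± 45.5) and Il1r1 (281 ± 45.8) came next and overlapped each other. The remaining members lay far lower, from 39.7 ± 9.62 for Casp1 down to 7.38 ± 2.42 for Nlrp3, and neighbours among Casp1, Il1b, Il33, Il1a, Il1rn and Nlrp3 overlapped in that group. On SSD the order changed in the middle of the list. In SSD-fed WT livers Il1r1 stood above Il18 in every mouse, at 581 ± 169 against 196 ± 26.1 per kb (SD, n = 5), and Il1rn stood in the fifth place, at 131 ± 102 (85.8 ± 11.6 without mouse 1), where it was in the ninth on NCD. Nlrp3 was last in all 4 groups, at 5.49 ± 1.09 to 10.2 ± 3.06 per kb.

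**Figure D1:**
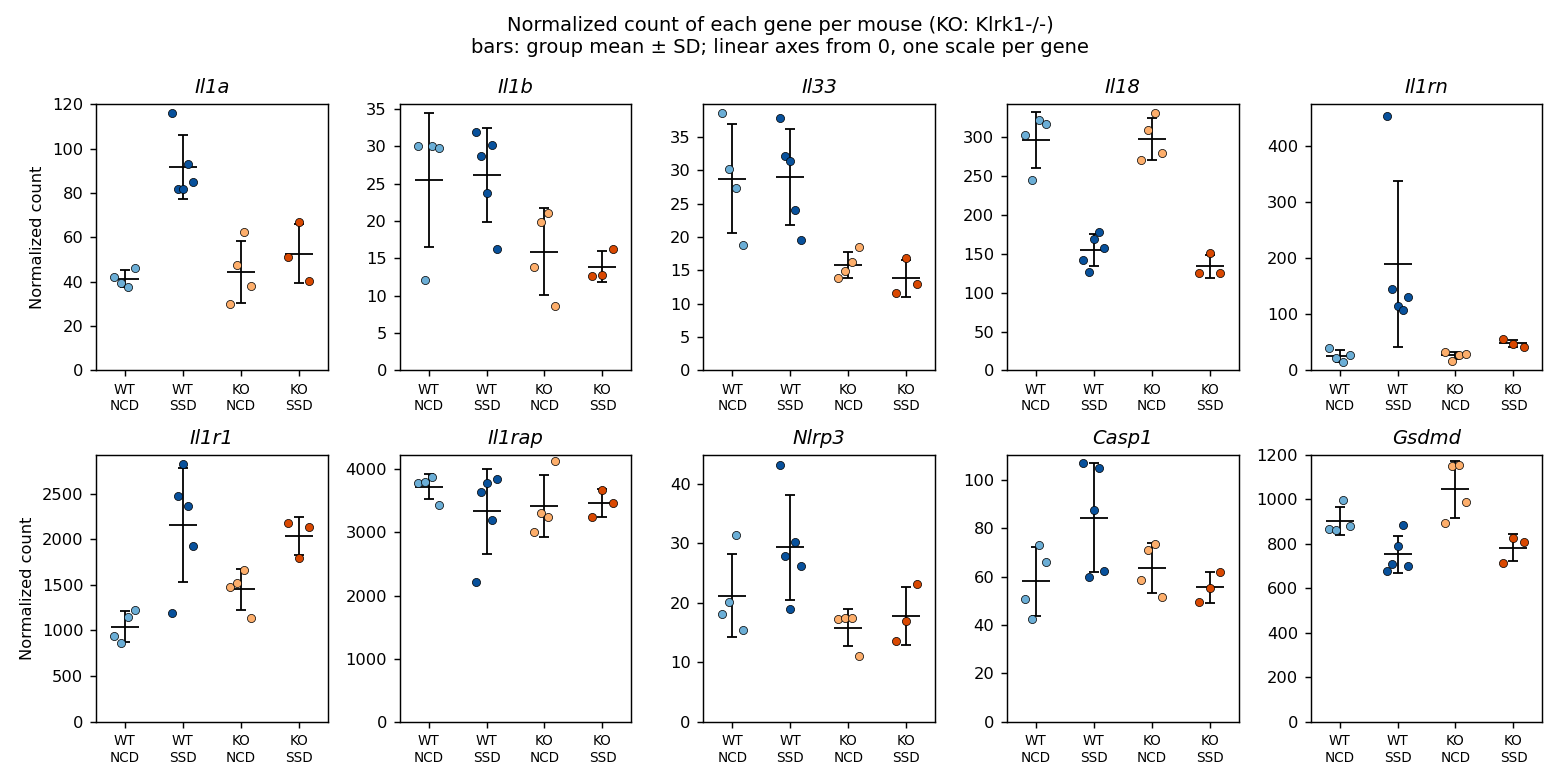
Normalized count of each member in each mouse (linear vertical axes from 0, with a separate scale for each gene). Points are mice, horizontal bars are group means with SD, and KO stands for Klrk1-/-. Il1rn and Il1a of SSD-fed WT mice lie above all other mice, Il18 is lower in both SSD groups, and 1 SSD-fed WT mouse reached 453 normalized counts of Il1rn.

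The first comparison asked how SSD changed these genes in WT livers. Of the 10 members 3 rose and 1 fell. Higher on SSD were Il1rn (6.30-fold), Il1a (2.17-fold) and Il1r1 (2.01-fold), and lower was Il18 (1.92-fold), all folds being on the log2(normalized count + 1) scale and tested with limma, with p-values adjusted over all genes (Benjamini-Hochberg). The 6 other members did not pass an adjusted p of 0.05. Of all 13091 genes tested, 17.3% were called higher and 17.6% lower, the shares against which 3 and 1 of 10 members are to be read. In 13.5% of these genes every SSD-fed mouse was above every NCD-fed mouse and in 15.5% below, as in 2 and 1 of the members.

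Il1rn, the antagonist, stood at 39.8, 21.1, 15.6 and 27.6 normalized counts in NCD-fed WT mice. In SSD-fed WT mice it reached 453, 144, 114, 107 and 131. Every SSD-fed mouse was above every NCD-fed mouse, and mouse 1 was the highest by a wide margin. The log2 fold change was 2.66 ± 0.40 (SE, adjusted p = 0.000425), and the exact two-sided permutation p was 0.0159, the smallest these groups allow. Without mouse 1 it was 2.28 (adjusted p = 2.97e-05).

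Il1a, the alarmin that shares the IL-1 receptor with IL-1 beta, had 42.2, 39.3, 37.8 and 46.3 normalized counts on NCD. On SSD it had 116, 82.0, 81.8, 93.3 and 84.9. The 2 WT groups did not overlap. The log2 fold change was 1.12 ± 0.16 (SE, adjusted p = 3e-04, exact permutation p = 0.0159), and 1.03 without mouse 1. Il1a and Il1b lie next to each other on chromosome 2, 54.6 kb apart on the same strand. Il1b had 30.1, 12.1, 30.0 and 29.8 normalized counts on NCD against 31.9, 28.7, 23.8, 30.2 and 16.3 on SSD. These ranges overlap, with a log2 difference of 0.09 whose 95% interval ran from -0.61 to 0.78 (adjusted p = 0.852).

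Il18 was the ligand with the highest level per kb, and it fell. NCD-fed WT mice had 303, 245, 323 and 317 normalized counts, and SSD-fed WT mice had 142, 127, 169, 178 and 157. No SSD-fed mouse reached the lowest NCD-fed one. The log2 fold change was -0.94 ± 0.13 (SE, adjusted p = 0.000262, exact permutation p = 0.0159). The gene for its soluble inhibitor, Il18bp, went the other way, from a mean of 242 ± 32.8 to 479 ± 172 normalized counts (log2 fold change 0.93 ± 0.20 SE, adjusted p = 0.00439), and is named here after its values were seen. In Klrk1-/- mice, where Il18 also fell (below), the mean of Il18bp was 233 ± 55.7 on NCD and 256 ± 26.3 on SSD. The diet effects on Il18bp in the 2 genotypes differed by -0.77 on the log2 scale, which limma did not call (adjusted p = 0.203). Il33 had overlapping values on the 2 diets in WT mice, with means of 28.7 ± 8.18 on NCD and 29.0 ± 7.20 on SSD (SD, n = 4 and 5, log2 difference 0.02 with a 95% interval of -0.57 to 0.61, adjusted p = 0.96).

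Il1r1, the signalling receptor chain, had 938, 859, 1145 and 1221 normalized counts on NCD. On SSD it had 1191, 2475, 2824, 2366 and 1923. SSD-fed mice 2 to 5 were above the whole NCD range, and mouse 1 lay inside it. The log2 fold change was 1.01 ± 0.21 (SE, adjusted p = 0.00407, exact permutation p = 0.0317), and 1.20 without mouse 1. Its partner chain Il1rap showed no called difference, at 3728 ± 197 on NCD and 3337 ± 673 on SSD (adjusted p = 0.343).

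The inflammasome members did not pass the threshold in WT mice. Casp1, the protease, had a log2 difference of 0.52 (95% interval 0.02 to 1.02, adjusted p = 0.0984), and Nlrp3, the sensor, 0.45 (interval -0.18 to 1.07, adjusted p = 0.246). Gsdmd, the pore former, had 868, 861, 996 and 882 normalized counts on NCD and 680, 709, 792, 884 and 701 on SSD. Of 5 SSD-fed mice 4 were below all NCD-fed mice, with a log2 difference of -0.26 and an adjusted p of 0.0509. Gsdmd was called lower under 5 of 18 alternatives (a minimum mean of 50, DESeq2, the replicate block, the joint model and without SSD-fed mouse 4). The sign of its difference depends on scaling, since it was 0.08 when every library was brought to the same total. That scaling moves the median of all genes to 0.34 in this comparison, and under it Casp1 (0.86, adjusted p = 0.0113) and Nlrp3 (0.78, adjusted p = 0.0489) were called higher, as were 48.1% of all genes.

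The start regions of Il1a, Il1rn and Il18 are shown because these 3 genes separated the diets in every WT mouse. RefSeq promoter windows were read, each from 250 bases before to 50 bases after a start. The RefSeq table is on GRCm38.p6 and holds 14 windows for 9 of the 10 members. Each window matched GRCm39, the build of the deposited table, at exactly 1 position, and positions are given on GRCm39. The windows were searched on both strands for the NF-kB consensus, the AP-1 motif TGANTCA, the C/EBP motif TTNNGCAA and the PU.1 core GAGGAA. Matches are in capitals, and none of those shown overlaps another.
Il1a, chr2:129151843-129152142, minus strand: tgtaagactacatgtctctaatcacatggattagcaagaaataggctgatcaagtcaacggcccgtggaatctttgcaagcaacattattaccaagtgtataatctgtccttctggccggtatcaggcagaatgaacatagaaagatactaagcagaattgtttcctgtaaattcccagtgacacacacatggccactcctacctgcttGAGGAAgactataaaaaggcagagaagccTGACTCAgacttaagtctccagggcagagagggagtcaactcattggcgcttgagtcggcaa
Il1rn, chr2:24226622-24226921, plus strand: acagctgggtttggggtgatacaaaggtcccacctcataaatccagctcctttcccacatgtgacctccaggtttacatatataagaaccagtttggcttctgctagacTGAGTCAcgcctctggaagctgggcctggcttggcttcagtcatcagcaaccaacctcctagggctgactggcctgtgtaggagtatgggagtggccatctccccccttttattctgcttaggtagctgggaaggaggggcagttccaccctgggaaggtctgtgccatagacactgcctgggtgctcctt
Il18, chr9:50465750-50466049, plus strand: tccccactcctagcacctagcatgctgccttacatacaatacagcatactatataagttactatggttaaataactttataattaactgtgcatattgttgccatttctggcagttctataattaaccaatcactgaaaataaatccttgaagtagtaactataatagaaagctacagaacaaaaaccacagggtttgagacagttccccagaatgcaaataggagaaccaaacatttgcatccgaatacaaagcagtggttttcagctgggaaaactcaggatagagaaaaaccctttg
The Il1a window holds 1 AP-1 motif, 12 bases before the start, and 1 PU.1 core, and the Il1rn window holds 1 AP-1 motif. The AP-1 motif occurs in 7.81% of the 32851 windows of the table and the PU.1 core in 28.3%. The Il18 window holds none of the 4 motifs. Il1rn has 2 further windows farther downstream, which hold none of the 4 motifs either. Among all windows of the 9 members, 2 members have the NF-kB consensus (8.46% of all windows), 2 have the AP-1 motif, 2 have the C/EBP motif (10.8%) and 4 have the PU.1 core. These shares are per window, whereas a member with several windows has more chances of a match. A match describes letters only.

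In Klrk1-/- livers the diet moved 4 members. Il1rn and Il1r1 rose, Il18 and Gsdmd fell, and Il1a did not pass the test. Of the 12904 genes tested there, 13.4% were called higher and 16% lower. The 2 diet groups did not overlap in 17.9% of these genes, with SSD higher, and in 19.7%, with SSD lower, against 2 and 2 of the members.

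Il1rn had 32.2, 17.4, 27.4 and 29.5 normalized counts in NCD-fed Klrk1-/- mice and 55.0, 47.4 and 42.0 in SSD-fed ones. The groups did not overlap, with a 1.81-fold rise (log2 0.86 ± 0.25 SE, adjusted p = 0.022). Without SSD-fed mouse 1 the adjusted p became 0.0981, without SSD-fed mouse 2 it was 0.0521, and with all 4 groups in 1 model it was 0.131. Il1r1 rose from 1480, 1524, 1658 and 1138 to 2179, 1798 and 2133, again without overlap (log2 0.50 ± 0.12 SE, adjusted p = 0.0109). For this gene the adjusted p was 0.0558 without SSD-fed mouse 1 and 0.107 with all 4 groups in 1 model.

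Il18 fell by 1.15 on the log2 scale in Klrk1-/- mice, from 271, 310, 331 and 280 to 126, 151 and 125 (SE 0.12, adjusted p = 3.4e-05). This call held under all 16 alternatives that gave a value. Gsdmd fell from 893, 1149, 1155 and 990 to 715, 827 and 807 (log2 -0.41 ± 0.11 SE, adjusted p = 0.0135), which was -0.16 with libraries brought to the same total (adjusted p = 0.256), and had an adjusted p of 0.073 without SSD-fed mouse 1. In all 4 of these genes the SSD-fed mice lay wholly outside the NCD range, and the exact permutation p was 0.0571, the smallest that 4 against 3 mice can give. Il1a ranged from 29.9 to 62.2 on NCD and from 40.3 to 66.7 on SSD (log2 0.26, 95% interval -0.31 to 0.84, adjusted p = 0.479). Il1b, Il33, Il1rap, Nlrp3 and Casp1 had log2 differences between -0.20 and 0.16, with adjusted p-values from 0.468 to 0.877.

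**Figure D2:**
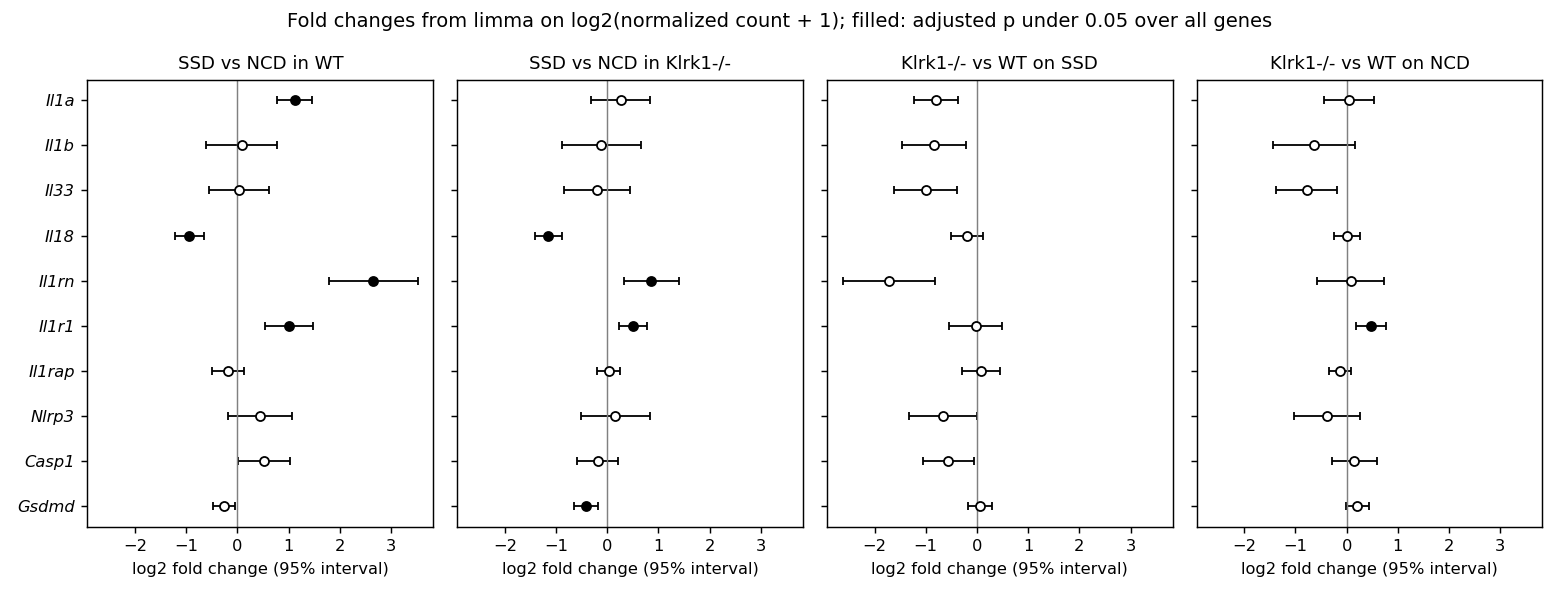
Log2 fold change of each member (horizontal axis, points) with its 95% interval (bars) in 4 comparisons from limma. Filled points passed the threshold (adjusted p below 0.05). In WT mice Il1rn lies at 2.66 and Il18 at -0.94, and in the comparison of genotypes on SSD no point is filled while 8 of 10 lie below 0.

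The comparison of Klrk1-/- with WT mice on SSD asks what the loss of the receptor changed under the diet. Il1rn, Il1a, Il33 and, by less than rounding shows, Il1b lay lower in all 3 Klrk1-/- mice than in any of the 5 WT mice, but none of the 10 members passed the adjusted threshold in limma. In limma 6 members had an unadjusted p under 0.05, all lower in Klrk1-/- mice, namely Il1a, Il1b, Il33, Il1rn, Nlrp3 and Casp1. Of all genes tested, 11.8% had such a p and were lower, and in 8.74% all Klrk1-/- mice were below all WT mice, as in 4 of the members. Of 13116 genes tested by limma, 1.22% were called higher and 1.68% lower. In the same comparison edgeR called 0 members. DESeq2 called 3 lower (Il1a, Il33 and Il1rn), beside 5.22% of all genes called lower by it. The median log2 difference of the 10 members was -0.61, and that of all genes was -0.001.

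Il1rn, at 55.0, 47.4 and 42.0 in the Klrk1-/- mice against 107 to 453 in the WT mice, differed by -1.72 on the log2 scale (95% interval -2.62 to -0.82, adjusted p = 0.0527). The exact permutation p was 0.0357, the smallest possible for 5 against 3 mice. Leaving out WT mouse 1 narrowed the spread and gave a log2 difference of -1.35 with an adjusted p of 0.00146. Over all alternatives the adjusted p of Il1rn ran from 0.000425 to 0.164.

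Il1a had 51.2, 66.7 and 40.3 normalized counts against 81.8 to 116 in WT mice, a log2 difference of -0.80 (95% interval -1.23 to -0.37, adjusted p = 0.0575, exact permutation p = 0.0357). Without WT mouse 1 the adjusted p was 0.0462, and over the alternatives it ran from 0.0135 to 0.19. Il33 had 11.6, 16.9 and 12.9 against 37.9, 32.1, 31.4, 24.0 and 19.6 in WT mice (log2 -1.0, adjusted p = 0.0812, range over the alternatives 0.032 to 0.251, with 0.0493 without WT mouse 5). Neither gene overlapped between the genotypes.

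Il1b had 12.6, 12.8 and 16.3 normalized counts in SSD-fed Klrk1-/- mice, and 31.9, 28.7, 23.8, 30.2 and 16.3 in SSD-fed WT mice. The groups did not overlap, although the highest Klrk1-/- and the lowest WT value are equal as rounded here (log2 -0.84, adjusted p = 0.124, exact permutation p = 0.0357, range over the alternatives 0.0579 to 0.314). Casp1 and Nlrp3 overlapped between the genotypes. Casp1 was at 55.5 ± 6.23 against 84.3 ± 22.5 (adjusted p = 0.182), and Nlrp3 at 17.8 ± 4.88 against 29.3 ± 8.82 (adjusted p = 0.214). Il18, Il1r1, Il1rap and Gsdmd differed by -0.20 to 0.08 on the log2 scale, with adjusted p-values from 0.424 to 0.958.

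On NCD the genotypes differed in 1 member, Il1r1, which was 1.39-fold higher in Klrk1-/- mice. Of 12845 genes tested, 6.41% were called higher and 6.66% lower. Il1r1 had 1480, 1524, 1658 and 1138 normalized counts against 938, 859, 1145 and 1221 in WT mice. Thus 3 of 4 Klrk1-/- mice were above all WT mice (log2 0.48 ± 0.14 SE, adjusted p = 0.0368, exact permutation p = 0.0857). The call was lost with libraries brought to the same total (adjusted p = 0.0579), with all 4 groups in 1 model (0.116) and on leaving out WT mouse 1 (0.0863), WT mouse 2 (0.0995), Klrk1-/- mouse 1 (0.0727), mouse 2 (0.091) or mouse 3 (0.108). Il33 was lower in all 4 Klrk1-/- mice, at 13.8, 14.9, 16.2 and 18.5 against 38.6, 30.2, 27.4 and 18.8, without overlap, as were 9.79% of all genes. Its log2 difference was -0.79 (adjusted p = 0.0719, exact permutation p = 0.0286, the smallest possible), and the adjusted p became 0.0313 without WT mouse 5 and 0.0497 with all 4 groups in 1 model. Il1a and Il1rn, which lay apart on SSD, overlapped on NCD, with log2 differences of 0.05 (adjusted p = 0.901) and 0.08 (adjusted p = 0.892).

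Whether the diet acted differently in the 2 genotypes was tested by the interaction of diet and genotype over all 16 mice. No member passed in limma (of all 13068 genes tested, 0.321% were called above 0 and 0.559% below), and 3 members had an unadjusted p under 0.05, all below 0, as had 8.81% of all genes. The largest was that of Il1rn, at -1.80 ± 0.53 (SE) on the log2 scale, a negative value standing for a smaller rise in Klrk1-/- mice (unadjusted p = 0.00342, adjusted p = 0.111). DESeq2 called it, with -2.02 and an adjusted p of 0.0316, beside 2.1% of all genes called below 0 by that tool, and edgeR called no member. Without SSD-fed WT mouse 1 limma gave -1.43 (adjusted p = 0.0701). Il1a had an interaction of -0.85 (adjusted p = 0.17) and Casp1 one of -0.71 (adjusted p = 0.259). The diet effect on Il1a was called in WT mice and not in Klrk1-/- mice, and the difference between these effects was not called.

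Antagonist and ligand were also set against each other within each mouse, as ratios of levels per kb and as log2 ratios with a pseudocount of 1 before the division by length. Whether such a ratio lies above or below 1 depends on the gene lengths used, whereas its differences between groups do not. Il1rn RNA was 0.291 to 0.975 times Il1b RNA in NCD-fed WT mice and 1.98 to 7.92 times in SSD-fed WT mice, with no overlap. Mouse 1 gave the 7.92, and the other 4 SSD-fed WT mice reached 1.98 to 4.49. In Klrk1-/- mice the ratio was 0.488 to 1.91 on NCD and 1.44 to 2.44 on SSD, and these ranges overlapped. The mean log2 ratio went from -0.81 ± 0.72 to 1.76 ± 0.78 in WT mice and from -0.09 ± 0.82 to 0.88 ± 0.37 in Klrk1-/- mice (SD, n = 4, 5, 4 and 3). With a pseudocount of 10 the mean of SSD-fed Klrk1-/- mice moved from 0.88 to 0.44. In the ratio of Il1rn to Il1b the 2 SSD groups overlapped between the genotypes. Il1rn exceeded Il1a per kb in all 5 SSD-fed WT mice, by 5.31 times in mouse 1 and 1.57 to 2.40 times in the others. In NCD-fed WT mice it was 0.563 to 1.28 times Il1a and exceeded it in 1 of 4, and the 2 diets did not overlap. The same ratio in Klrk1-/- mice was 0.502 to 1.47 on NCD and 0.968 to 1.46 on SSD, overlapping. Between the genotypes on SSD it did not overlap, at 1.57 to 5.31 in WT mice against 0.968 to 1.46 in Klrk1-/- mice.

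**Figure D3:**
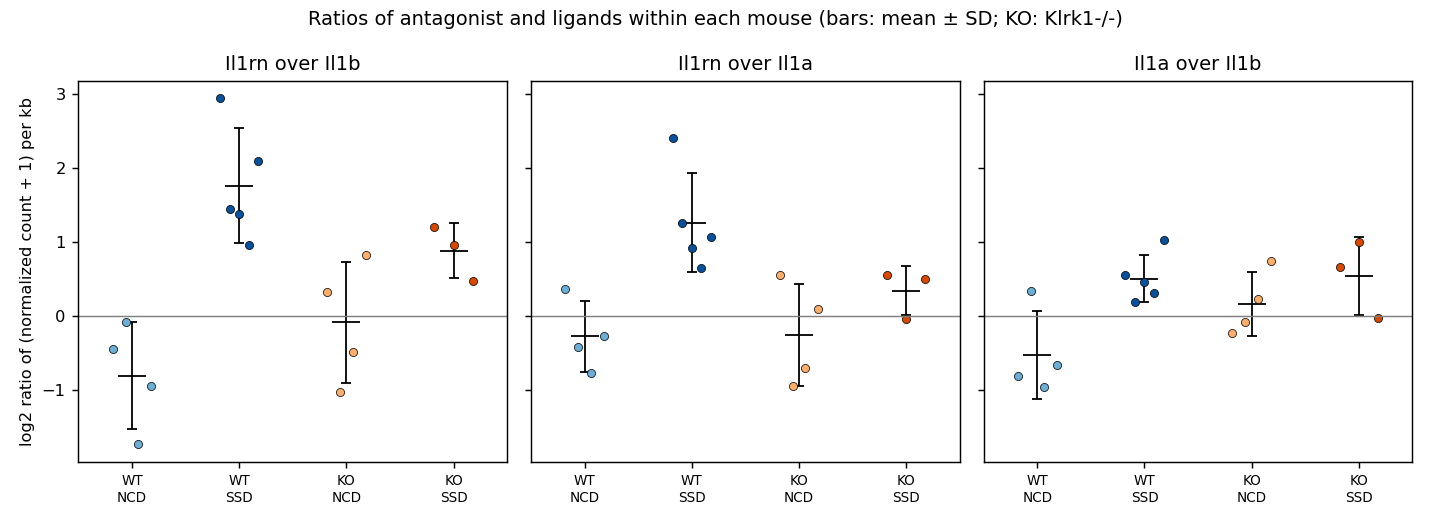
Log2 ratio of levels per kb (normalized count with a pseudocount of 1, divided by gene length) of Il1rn to Il1b, Il1rn to Il1a and Il1a to Il1b in each mouse. Points are mice, bars are means with SD, and KO stands for Klrk1-/-. The ratio of Il1rn to Il1b averaged 1.76 in SSD-fed WT mice against -0.81 in NCD-fed WT mice, and 0.88 against -0.09 in Klrk1-/- mice.

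A wider list of 73 pathway genes placed these members in context. Between 51 and 54 of them passed the minimum mean, depending on the comparison. None of the 5 other ligand genes (the IL-36 genes and Il1f10) passed it in any model, nor did the IL-33 receptor gene Il1rl1, the decoy receptor gene Il1r2 or the IL-18 receptor genes Il18r1 and Il18rap. In WT mice 14 of 53 tested genes rose with SSD and 6 fell (median of the log2 fold changes 0.27), beside 17.3% and 17.6% of all genes. Of these, the genes known to respond to IL-1, many of which also respond to IL-17 and TNF, had 5 of 13 tested higher and 1 lower (median 0.56). Saa3, an acute-phase gene of macrophages, went from 168 ± 38.2 to 978 ± 347 normalized counts (log2 2.48, adjusted p = 2.53e-05). Lcn2, which encodes an iron-scavenging acute-phase protein, rose by 2.46 on the log2 scale (adjusted p = 0.0122), and by 1.89 (adjusted p = 0.0063) without SSD-fed mouse 1. Tnfaip3, an inhibitor of NF-kB, rose by 1.68 (adjusted p = 0.0033), and by 1.34 without that mouse. Txnip, which encodes an NLRP3-binding redox protein, rose by 1.41 and the monocyte chemokine gene Ccl2 by 1.37 (adjusted p = 0.0398), which was 1.01 with an adjusted p of 0.0534 without SSD-fed mouse 1. Among the genes that fell was Saa1, a hepatocyte acute-phase gene, by 1.07 (adjusted p = 0.0314), named here because it recurs below. Saa1 and Saa2 are near-identical copies between which reads may have been split. Prtn3, a neutrophil protease gene, had 20.5 to 100.0 normalized counts on NCD and 1.63 to 5.07 on SSD.

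In Klrk1-/- mice SSD raised 6 and lowered 5 of 51 tested pathway genes, with a median of 0.04, beside 13.4% and 16% of all genes. Saa3 (1.29) and Txnip (0.94) were the largest rises on the log2 scale. The neutrophil chemokine gene Cxcl1 fell by 1.57 (adjusted p = 5.61e-05), Saa2 by 1.47 and Saa1 by 1.15. Prtn3 went from 6.15 to 28.6 normalized counts on NCD to 0 to 1.93 on SSD. Lcn2, Tnfaip3 and Ccl2, with log2 differences of 0.28, 0.40 and 0.06, were not called. The interaction test called 1 of 53 tested pathway genes and none of those just named. The gene it called was Ninj1, which encodes a protein of plasma membrane rupture, and it fell on SSD from 3763 ± 340.0 to 2676 ± 135 in WT mice and stood at 3149 ± 242 and 3166 ± 146 in Klrk1-/- mice (interaction 0.50 ± 0.12 SE, adjusted p = 0.0491). No pathway gene was called in 14 of the 16 fits that left out 1 mouse (all but those without NCD-fed WT mouse 5 or SSD-fed Klrk1-/- mouse 2), nor with no minimum mean, a minimum mean of 50, equal totals, edgeR or the replicate block. Ninj1 itself was called in 1 of those 16 fits, with interactions of 0.44 to 0.54 and adjusted p-values of 0.0394 to 0.146, and by DESeq2 (0.50, adjusted p = 0.00266).

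**Figure D4:**
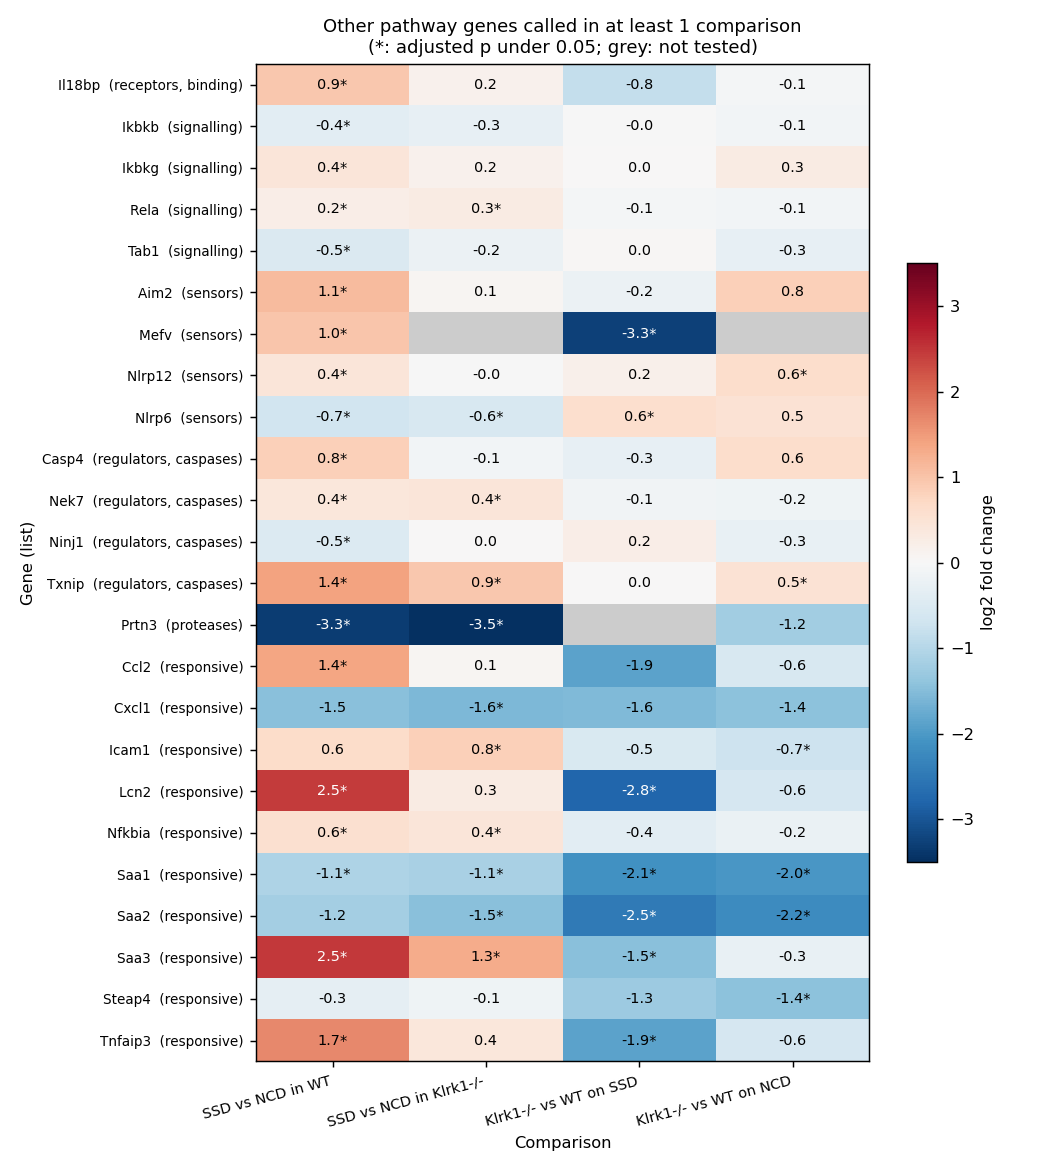
Log2 fold changes (colour and printed value) of the pathway genes called in at least 1 of 4 comparisons (columns), with the list of each gene in brackets. Asterisks mark an adjusted p under 0.05 and grey cells were not tested. Saa3 and Lcn2 are the strongest rises in WT mice, and Saa1, Saa2, Lcn2 and Tnfaip3 are lower in Klrk1-/- mice on SSD.

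Genotypes on SSD differed in 7 of 54 tested pathway genes, 6 of them lower in Klrk1-/- mice, beside 1.22% of all genes higher and 1.68% lower. Of these 6, 5 belong to the IL-1-responsive list, of which 12 of 13 tested genes lay below 0 with a median log2 difference of -1.56. That list holds Cxcl1, Cxcl2 and Ccl2, which the authors had reported as reduced in SSD-fed Klrk1-/- livers from these data. Its count and median are therefore not independent of that report. Lcn2 had 113 ± 17.0 against 1163 ± 1401 normalized counts in WT mice (log2 -2.76, adjusted p = 0.043). WT mouse 1 had 3650 normalized counts, and the other 4 WT mice had 366 to 823, with a mean of 542 (log2 -2.20, adjusted p = 0.000638 without mouse 1). Saa2 differed by -2.47 (adjusted p = 0.00752), Saa1 by -2.12 (adjusted p = 0.00885), Tnfaip3 by -1.87 (adjusted p = 0.0392) and Saa3 by -1.46 (adjusted p = 0.0213). Mefv, which encodes the sensor pyrin, had 0 to 5.62 normalized counts against 14.7 to 52.5 in WT mice. The 1 gene called higher was the sensor gene Nlrp6, at 0.60 (adjusted p = 0.0192). The number called depended on single mice. It was 12 without WT mouse 1, beside 5.49% of all genes (2.9% with every mouse), and 4 without WT mouse 2 (1.27%) or WT mouse 3 (1.14%). It was 0 without Klrk1-/- mouse 1 (0.342% of all genes), 3 without Klrk1-/- mouse 2 (0.663%) and 1 without Klrk1-/- mouse 3 (0.472%). On NCD 2 of 51 genes were higher and 4 lower in Klrk1-/- mice, beside 6.41% and 6.66% of all genes, and the 4 lower ones were of the IL-1-responsive list, of which 12 of 13 lay below 0 (median -0.59). The 6 calls (beside 13.1% of all genes) became 3 without WT mouse 1 (7.51%) and 3 without Klrk1-/- mouse 2 (6.55%). They became 3 without Klrk1-/- mouse 3 (5.59%) and 4 without Klrk1-/- mouse 1 (9.79%). Saa2 differed there by -2.19 (adjusted p = 0.00708), Saa1 by -2.05 (adjusted p = 0.00241), Steap4, a metalloreductase gene, by -1.43 (adjusted p = 0.000737) and the adhesion gene Icam1 by -0.73, so Saa1 and Saa2 were lower in Klrk1-/- mice on either diet. Nlrp12 and Txnip were higher by 0.62 and 0.50 on NCD.

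Markers of macrophages moved with several members. In bulk tissue fewer cells of a type and less RNA per cell cannot be told apart. Counts of called markers are to be read beside the shares of all genes called higher and lower. These were 17.3% and 17.6% with SSD in WT mice and 13.4% and 16% with SSD in Klrk1-/- mice. Between genotypes they were 1.22% and 1.68% on SSD and 6.41% and 6.66% on NCD. In WT mice SSD raised 6 of 10 markers of recruited monocytes and macrophages (median log2 1.25), and their summed level was 2664 to 4267 normalized counts on NCD and 3320 to 11944 on SSD. Spp1 holds a large part of this sum, with 855 to 2519 on NCD and 697 to 2587 on SSD. Spp1, Lyz2, Cx3cr1 and Itgam overlapped between the diets in WT mice, and the other markers of the list did not (13.5% of all genes were higher without overlap). SSD-fed WT mouse 1, which had the highest Il1rn, also had the highest sum, 11944, whereas the other 4 had 3320 to 5316. On SSD the sum was 3175 to 3371 in Klrk1-/- mice, and 9 of 10 of these markers lay below 0 against WT mice (median -1.15, 0 called by limma and 7 at an unadjusted p under 0.05). In Klrk1-/- mice, where Il1rn also rose, SSD raised 4 of the 10, namely Trem2 (adjusted p = 0.00544), Gpnmb (0.00374), Cd9 (4.15e-06) and Itgax (0.0469), and the sum of 2312 to 2731 on NCD did not overlap that on SSD. Of the 8 Kupffer cell markers, 4 rose and 1 (C6) fell with SSD in WT mice. With SSD in Klrk1-/- mice 2 rose (Cd5l, adjusted p = 0.00109, and Adgre1, adjusted p = 0.0384) and C6 fell. Their summed level was 13095 to 13257 on NCD and 8421 to 15035 on SSD in WT mice, and 10052 to 13798 and 6203 to 7897 in Klrk1-/- mice. Without C6, an alternative chosen after seeing the data, the sum was 3729 to 4040 on NCD and 5351 to 11430 on SSD in WT mice, and 3191 to 3974 and 4006 to 5151 in Klrk1-/- mice, so that each SSD group lay above its NCD group. Between genotypes on SSD all 8 lay below the WT level and 1 (Marco) was called. Of the 7 neutrophil markers 3 passed the minimum mean, of which limma called none in either diet comparison (1 at an unadjusted p under 0.05 in WT mice and 0 in Klrk1-/- mice). All 7 summed to 78.5 to 191 on NCD and 107 to 285 on SSD in WT mice. SSD-fed WT mouse 1 had the 285, and the other 4 had 107 to 151. Markers of sinusoidal endothelium moved with Il1r1 in WT mice, where 5 of 6 rose with SSD and their sum was 3220 to 5440 on NCD and 5218 to 6280 on SSD. In Klrk1-/- mice, 2 of these 6 had an unadjusted p under 0.05 with SSD and limma called 0, while Il1r1 also rose there. Stellate cell markers moved with Il1r1 as well, with 2 of 6 called higher with SSD in WT mice and 3 of 6 in Klrk1-/- mice. On NCD, where Il1r1 was higher in Klrk1-/- mice, all 6 endothelial markers lay above the WT level and Stab2 (log2 0.52, adjusted p = 0.0287) and Stab1 (0.65, adjusted p = 0.04) were called. Of the stellate cell markers 5 of 6 lay above the WT level too, and of the B cell markers all 4, with 1 of each list called higher. In the same comparison, beside the lower responsive genes, Marco (-0.77, adjusted p = 0.0375) and the bile duct marker Krt19 (-1.03, adjusted p = 0.0214) were called lower, and all 8 Kupffer cell markers and 7 of 9 tested monocyte and macrophage markers lay below 0. Hepatocyte markers summed to 2316920 to 2705945 on NCD and 1618092 to 1940751 on SSD in WT mice, with 2 of 6 called lower, beside the fall of Il18. In Klrk1-/- mice, where Il18 also fell, the sums were 2229990 to 2926930 on NCD and 2129542 to 2234343 on SSD, overlapping, with Apoa1, Ttr and Serpina1a called lower and Cyp3a11 higher (log2 0.75, adjusted p = 0.00849). The part that these cell markers play in the results for Il1rn, Il1a, Il1r1, Il18 and the responsive genes was not tested.

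**Figure D5:**
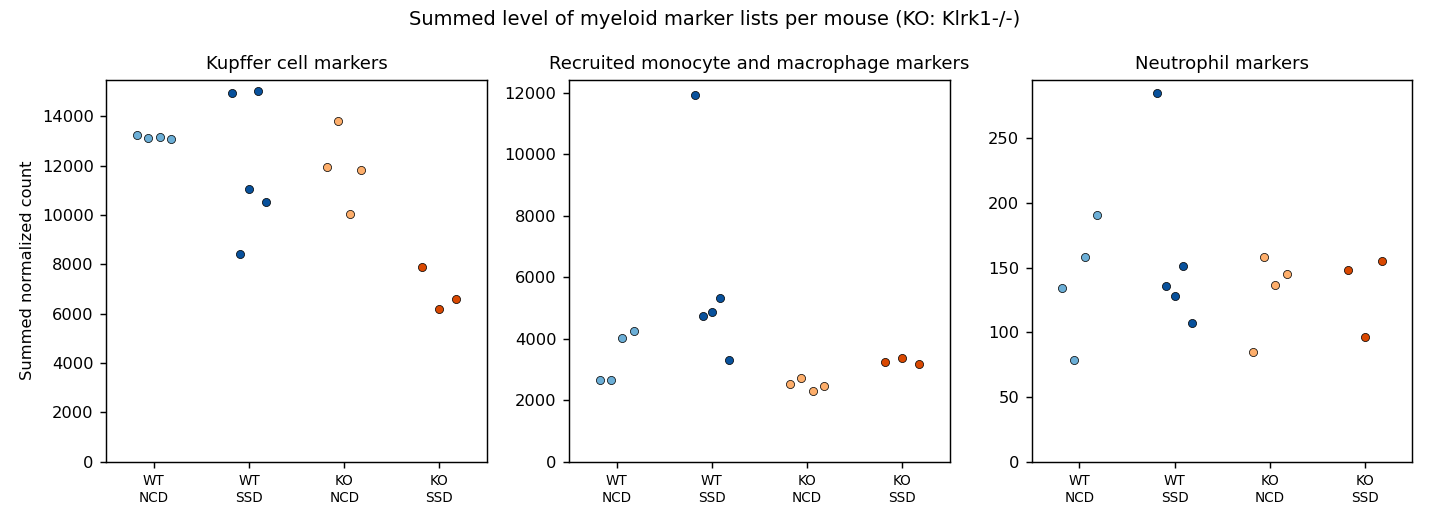
Summed normalized counts of the marker lists of Kupffer cells, of recruited monocytes and macrophages and of neutrophils in each mouse (vertical axes from 0). Points are mice and KO stands for Klrk1-/-. SSD-fed WT mouse 1 reached 11944 for recruited monocytes and macrophages, and all 3 SSD-fed Klrk1-/- mice lie between 6203 and 7897 for the Kupffer cell list, in which C6 fell (without C6 it is 4006 to 5151, against 3191 to 3974 on NCD).

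The genes whose mouse-to-mouse deviations from their group mean were most like those of a member were found over 16 mice, as a description. The closest to Il1rn was Picalm (Pearson 0.919, Spearman 0.909), and the closest to Casp1 was Ndc80 (0.935 and 0.944). Il18 was closest to Apoa1, a hepatocyte apolipoprotein gene (0.890 and 0.832). Il1b was closest to Rhoh, a gene of blood cells (0.898 and 0.891), and Nlrp3 to Batf, a transcription factor gene of lymphocytes (0.877 and 0.871). For Il1a the 3 closest were Acap1, Ttc4 and Gamt (Pearson 0.824 to 0.827), and for Il33 they were Cwf19l2, Gng11 and Ralgds (0.822 to 0.843). Il1r1 was closest to Tmem28 (0.906), Il1rap to Txndc15 (0.916) and Gsdmd to Pias1 (0.861). These are the highest of all genes searched, and the points of every pair come from the same 16 libraries, each with 1 scaling factor.

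On GRCm39 the members lie at chr2:129141530-129151892 (Il1a), chr2:129206490-129213059 (Il1b), chr19:29902514-29938118 (Il33), chr9:50466127-50493140 (Il18), chr2:24226865-24241506 (Il1rn), chr1:40264240-40356417 (Il1r1), chr16:26400454-26548867 (Il1rap), chr11:59432394-59457782 (Nlrp3), chr9:5298508-5307290 (Casp1) and chr15:75734176-75739257 (Gsdmd). Il1a and Il1b are on the minus strand and the others on the plus strand, and all 10 are protein-coding. Some members overlap other genes in the annotation (GENCODE M39). Il18 overlaps Bco2 by 357 bases and lies across Tex12, both on the opposite strand and neither in shared exons. Neither was called in any comparison. Il1r1 contains Gm38070 on its own strand, also outside its exons. On the opposite strand, long non-coding genes share exonic bases with Il1a (Gm14023, 477 bases), Il1b (Il1bos, 95 bases), Il33 (Gm41832, 159 bases), Il1rap (Gm20319, 1425 bases), Casp1 (Gm67740, 110 bases) and Gsdmd (Gm62577, 283 bases). Whether the counting used the strand is not given in the sources used here, and without it reads of a gene and of its antisense partner cannot be told apart.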

How the data were processed

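Per the labels and methods, whole-liver RNA of 16 mice was extracted (RNeasy Micro) and sequenced as single reads of 100 bases, and the authors aligned reads with STAR to GRCm39 and counted genes with FeatureCounts on GENCODE M26. The methods name a total RNA kit and the labels an mRNA kit. The deposited signal values, headed normalized counts, behave as counts divided by 1 factor per mouse, and how the authors computed it for this table is not given in the sources used here. Dividing by the step of 1 read gave whole reads for 100% of values (tolerance 0.01), 19892025 to 28936707 per mouse. In NCD-fed WT mouse 2 the step is 1.01, so near 1 that the values alone show the scaling less clearly. Levels per kb used the deposited gene length. The deposited GC content, a fraction, was not used. Per comparison, genes with a mean of at least 10 were tested with limma (3.58.1, R 4.3.3) on log2(normalized count + 1), with Benjamini-Hochberg adjustment over all of them, a trend and only the groups compared. Calls needed an adjusted p below 0.05. Exact two-sided permutation tests were run per member. edgeR 4.0.16 and DESeq2 1.42.0 on recovered reads, other pseudocounts, filters and scalings, a replicate block, 1 joint model and leaving out each mouse were alternatives. Scripts were tested on simulated data.

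The members and lists were chosen with earlier results of these data known. Named were all members, up to 6 called pathway genes per comparison by size, Klrk1 and the 3 genes most like each member. A gene with at most 3 reads counted as at the floor. Each library is 1 mouse, no batch is given, and precision is limited by 3 to 5 mice per group.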

Additional observations from a re-analysis of the deposited data

Results flagged for a closer look

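Of 30 groups of member values checked for a mouse far from the rest, 4 had one, and chance alone gives about 1 in 20. Il1rn reached 453 normalized counts in SSD-fed WT mouse 1, where the next mouse had 144. This mouse also had the highest sum of recruited monocyte and macrophage markers, 11944, and the part of these in the Il1rn value was not tested. Il1b was 12.1 in NCD-fed WT mouse 2, against 29.8 to 30.1 in the other 3. Nlrp3 was 11.1 in NCD-fed Klrk1-/- mouse 4, against 17.2 to 17.4 in the others. Gsdmd was 996 in NCD-fed WT mouse 3, against 861 to 882 in the others.

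Among the pathway genes 1 responded to the diet differently in the genotypes by the interaction test, Ninj1 (0.50 on the log2 scale, adjusted p = 0.0491 by limma). This call was lost in 15 of 16 fits that left out 1 mouse, in which the interaction was 0.44 to 0.54, and under 5 of 8 other alternatives, in which it was 0.41 to 0.53.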

How the results depend on the processing

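Over 1107 values recomputed under alternatives, 977 counted as kept, by a rule that differed with the kind of value. A fold change had to keep its direction and side of the threshold. A count of called genes had to stay within a set ratio of the main count, and a ratio or marker sum had to move by less than its SD. The cause of the other changes was not tested. Members called between genotypes on SSD were 0, beside 2.9% of all genes, but 2 with equal totals (3.51% of all genes), 3 by DESeq2 (9.3%), 1 with the replicate block (5.41%) and 3 with all 4 groups in 1 model (7.26%), and 0 to 2 on leaving out 1 mouse (2 without WT mouse 1, with 5.49% of all genes, and 1 without WT mouse 5, with 4.01%). Pathway genes called there were 7, but 15 by DESeq2, 12 with the block, 11 in the joint model and 0 to 12 on leaving out 1 mouse (0.342% to 5.49% of all genes). On NCD members called were 1 (beside 13.1% of all genes), but 0 with equal totals (10.7%) and 0 with a fold above 2. On leaving out 1 mouse they were 0 to 2 (5.59% to 17.1% of all genes), with 2 without WT mouse 5 (17.1%). Pathway genes called on NCD were 6, but 10 by DESeq2 (17.3% of all genes), 3 with a fold above 2 and 3 to 7 on leaving out 1 mouse. With SSD in Klrk1-/- mice, 4 members (beside 29.4% of all genes) became 2 in the joint model (24%) and 1 with a fold above 2. On leaving out 1 mouse they were 1 to 4 (18.6% to 28.4% of all genes), with 1 left without SSD-fed mouse 1 (18.6%). There 11 pathway genes became 23 (19 higher, 4 lower) with equal totals, which called 37.5% of all genes higher and 6.24% lower, and 5 with a fold above 2. With SSD in WT mice, 20 pathway genes became 39 (38 higher, 1 lower) with equal totals, which called 48.1% of all genes higher and 5.46% lower, and 8 with a fold above 2. For the interaction DESeq2 called 1 member and 3 pathway genes (beside 3.52% of all genes, against 0.88% in limma). Pathway genes called were 0 with no minimum mean, a minimum of 50, equal totals, edgeR, the block or a fold above 2. They were 0 to 1 on leaving out 1 mouse (0 in 14 of 16 fits).

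Equal totals moved the median of all genes to 0.34, 0.25, -0.12, -0.03 and -0.09 (SSD in WT, SSD in Klrk1-/-, genotype on SSD, on NCD, interaction) and reversed values that were not called, namely Il1rap to 0.16 and Gsdmd to 0.082 with SSD in WT mice, Il1b to 0.13, Il33 to 0.044 and Casp1 to 0.066 with SSD in Klrk1-/- mice, Il1rap to -0.035 and Gsdmd to -0.054 between genotypes on SSD, and Il18 to -0.016 on NCD. They also called Nlrp3 (0.78) and Casp1 (0.86) with SSD in WT mice and Il1rap (0.28, adjusted p = 0.037) with SSD in Klrk1-/- mice. Leaving out 1 mouse turned the sign of uncalled values, with ranges of -0.22 to 0.24 for Il1b and -0.16 to 0.17 for Il33 (SSD in WT), -0.36 to 0.042 for Il1b, -0.033 to 0.12 for Il1rap and -0.037 to 0.33 for Nlrp3 (SSD in Klrk1-/-), -0.23 to 0.085 for Il1r1 and -0.06 to 0.14 for Il1rap (genotype on SSD), -0.13 to 0.22 for Il1a, -0.08 to 0.054 for Il18 and -0.13 to 0.30 for Il1rn (genotype on NCD) and -0.45 to 0.11 for the Il1b interaction. Gsdmd with SSD in WT mice was called with a minimum of 50, DESeq2, the block, the joint model and without SSD-fed mouse 4.

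Mice of the same number share only a number. Their deviations correlated between -0.13 and 0.25, and no comparison had every pair over 0.1. The replicate block reversed Il1r1 between genotypes on SSD to 0.002. Il1b had the fewest reads of the members, 7 to 48 per mouse.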

Other observations

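Other cell markers were followed beside the members. Of 6 stellate cell markers, 2 rose with SSD in WT mice and 3 in Klrk1-/- mice, beside 17.3% and 13.4% of all genes. The summed level of these markers was 7060 to 8900 normalized counts in NCD-fed WT mice and 8369 to 15012 in SSD-fed WT mice. It was 10109 to 11222 in NCD-fed Klrk1-/- mice and 11484 to 13838 in SSD-fed Klrk1-/- mice. T and NK cell markers summed to 33.8 to 54.1 in NCD-fed and 61.7 to 112 in SSD-fed WT mice, ranges that did not overlap, and to 44.3 to 69.6 and 63.7 to 78.0 in Klrk1-/- mice. Of the 4 adipocyte markers Adipoq, Plin1 and Lep were at the floor in every mouse. The fourth, Cidec, which encodes a lipid droplet protein, had 9.12 to 28.9 normalized counts in NCD-fed and 519 to 1407 in SSD-fed WT mice, and 11.2 to 48.3 and 171 to 231 in Klrk1-/- mice. SSD-fed Klrk1-/- mice lay below all SSD-fed WT mice in this gene (adjusted p = 0.00833 by limma). B cell markers summed to 51.9 to 142 in WT mice and 82.7 to 159 in Klrk1-/- mice, and bile duct markers to 199 to 411 and 201 to 288.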
